A study of Mus musculus with 8 samples.

Results

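The genes described here encode proteins of the synapse, of myelin and glia, and of the photoreceptor. They are 40 genes, out of 34963 gene names on the array, taken by the gene name that the scanner files give to each probe. In all 55 probes carry such a name, and the accession of each of them gives the same symbol. Each gene was read from its brightest eligible probe. By role they are 5 glutamate receptor subunits, 7 genes of vesicle release and axon growth, 3 neurofilaments, 4 enzymes of transmitter synthesis, 4 transmitter transporters, 5 myelin genes, 3 genes of astrocytes and other glia, and 9 photoreceptor genes.

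Expression was measured on 8 one-colour arrays of mouse RNA. Medullary thymic epithelial cells (mTEC) of the mature kind gave 6 of them, 3 of genotype Cdx1+/+ and 3 of genotype Cdx1-/-, and small intestine epithelial cells (SIEC) gave the rest, 1 labelled Cdx1+/+ and 1 labelled Cdx1-/-. Mice of all groups were of a mixed C57BL/6 and 129 background, and no age is stated. The mTEC were sorted as Epcam+ UEA1+ CD45- cells with high CD80 and MHC class II and with no Fluorogold, the dye that marks dead cells. Each mTEC sample pooled 4 to 6 thymi and each SIEC sample pooled 3 mice, so a p-value here measures the spread between pools. The labels do not say which part of Cdx1 is missing from the mutant allele.

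A neuron passes signals at synapses, where SNARE proteins fuse transmitter vesicles with the membrane and receptors on the next cell bind what is released. Myelin is the membrane sheath that glial cells wrap around axons, and photoreceptors of the retina turn light into a signal through transducin and a phosphodiesterase. Mature mTEC are known for transcribing genes of many other tissues at low frequency, which exposes developing T cells to those proteins before they leave the thymus. Several of the genes here encode known autoantigens, such as Mbp, Mog, Aqp4, Sag and Rbp3. Cdx1 encodes a homeobox factor of gut epithelium, and the study's title poses the effect of its loss on ectopic expression in mTEC.

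Between 58.6% and 63.5% of spots were well above background on the mTEC arrays, against 44.6% and 46.3% on the SIEC arrays, and no spot was saturated. Across probes, log2 signals correlated by at least 0.991 within an mTEC genotype and by at least 0.982 between genotypes. Levels below are log2 signals relative to the array's 75th percentile, so a level of 0 is the 75th percentile, and levels of different genes are not set against each other. The Cdx1 probe read 5.88, 5.90 and 5.96 in Cdx1+/+ mTEC, replicates 1 to 3, and 4.80, 4.98 and 4.995 in Cdx1-/- mTEC. It fell by 0.99 (SE 0.09, limma adjusted p = 0.00373) and stayed well above background. On the SIEC arrays it read 4.87 in the sample labelled Cdx1+/+ and 6.48 in the sample labelled Cdx1-/-, which goes against the labels, so SIEC samples are named by label throughout. All 14 mTEC markers on the array, Aire and Fezf2 among them, were detected in mTEC. All 11 enterocyte markers were detected in SIEC and also in mTEC of both genotypes. Their summed linear signal was 1941 to 3264 (75th percentile = 1) in SIEC, against 20.1 to 42.4 in mTEC. Of the mTEC markers, 8 were also detected in SIEC, where the list summed to 264 to 320, against 622 to 986 in mTEC. Bright genes weigh most in such a sum, here H2-Ab1 (mean level 7.50 in SIEC and 8.42 in mTEC). Aire and Fezf2 were above background on no SIEC array.

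Most of these genes gave a signal in mTEC. On at least 2 of 3 arrays, 35 of 40 were well above background in Cdx1+/+ mTEC (87.5%, against 68.9% of all gene names) and 32 of 40 in Cdx1-/- mTEC (80%, against 66.4%). On both SIEC arrays 12 of 40 were (30%, against 49.1%), and 16 of 40 on at least 1 (40%, against 54.7%). Between the genotypes of mTEC, 35 genes could be tested and 9 passed at an adjusted p of 0.05, where 12.9% of all 24337 genes tested passed. Of the 9, 6 fell in Cdx1-/- mTEC (Slc6a7, Th, Grin1, Rcvrn, Mag and Gap43) and 3 rose (Aqp4, Nrl and Prph2). The shares over all genes tested were 6.6% lower and 6.28% higher. The median difference over the 35 was −0.26, or −0.25 without Slc6a7, and over all genes tested it was 0.0033. A fitted difference below 0 was seen for 24 of 35, against 49.5% of all genes. Grin2b, Gad2 and Pde6b entered the test only through their Cdx1+/+ arrays, and each had a difference below 0. Under the strict filter, which left 32 genes above background on all 6 mTEC arrays, 21 lay below 0 (48.2% of all genes), with a median of −0.22. The arrays of both genotypes did not overlap for 19 of 35, of which 15 were lower in Cdx1-/- mTEC, against 38% and 17.9% of all genes. Under all 15 alternative settings Slc6a7, Grin1, Aqp4 and Nrl passed. Slide as a block, slide 1 alone and leaving out Cdx1-/- replicate 1 are the same fit, because no other mTEC array was on slide 2. Counts out of 15 therefore hold that fit more than once. Within slide 1, which held the Cdx1+/+ arrays and Cdx1-/- replicates 2 and 3, 5 genes passed, and the count was 5, 4 and 5 without Cdx1+/+ replicate 2, Cdx1+/+ replicate 3 and Cdx1-/- replicate 3. With replicate number as a block, a pairing that the labels do not state, 12 passed, of which 9 were lower. In bulk RNA of a pool, fewer cells with a transcript and less transcript per cell cannot be told apart.

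**Figure D1:**
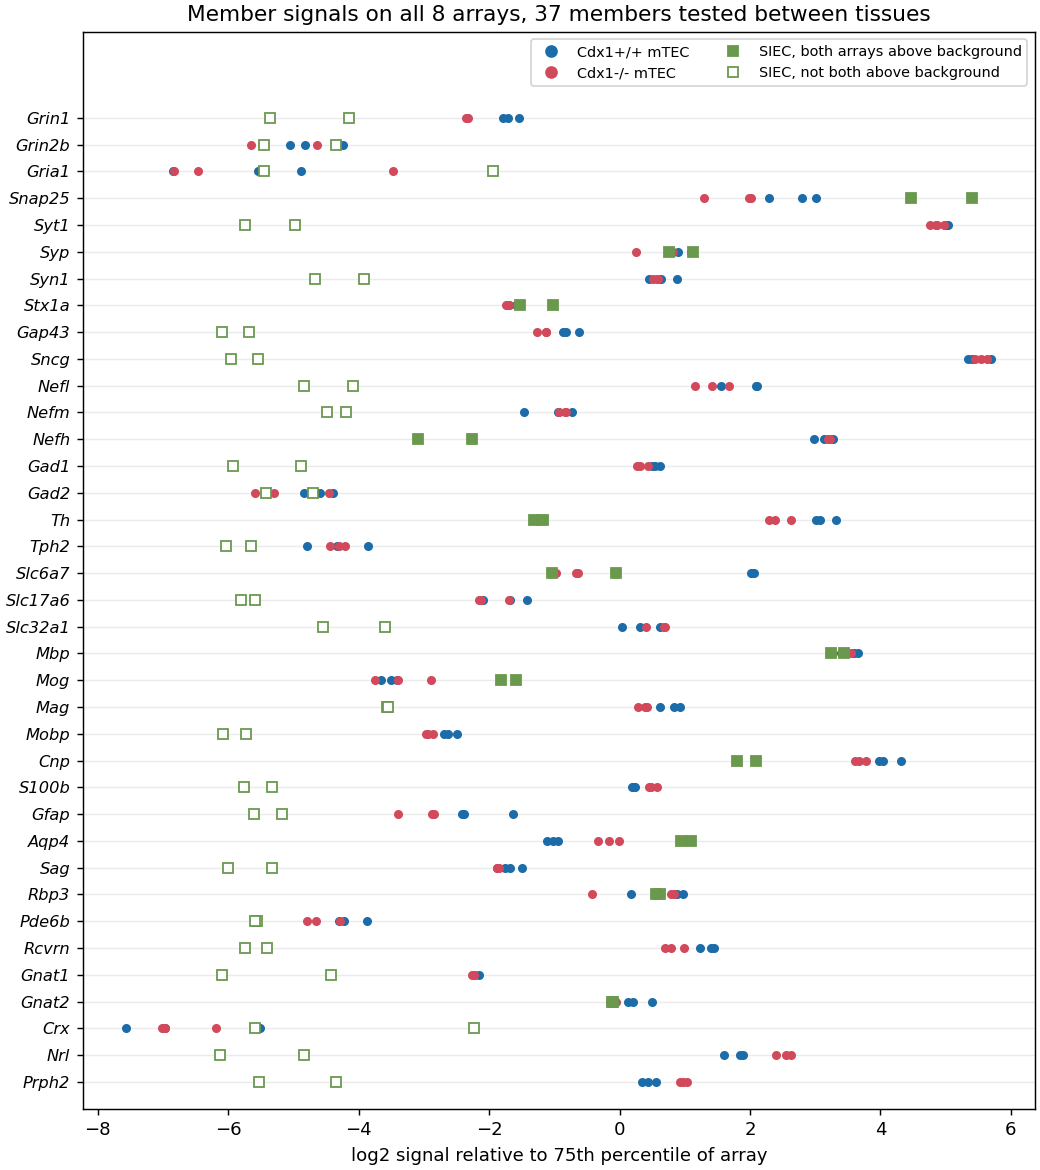
Log2 signal of 37 genes on each of the 8 arrays, relative to the array's 75th percentile, with 1 point per array; open squares mark genes not well above background on both SIEC arrays. The mTEC points of Syt1 and Sncg lie between 4.76 and 5.70 while their SIEC points lie at −4.98 or lower, and the order of mTEC and SIEC is turned for Snap25, Mog and Aqp4.

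Between tissues, 37 genes were tested and 29 passed, where 83.6% of all 25272 genes tested passed. In mTEC 24 were higher (34.3% of all genes were) and 5 were lower (49.3%), with a median difference of 3.03 against −0.43 over all genes. A difference below 0 was seen for 9 of 37 (58.3% of all genes). The arrays of both tissues did not overlap for 28 (82.1% of all genes), of which 4 were lower in mTEC (48.7%). Of the 24, 20 were not well above background on either SIEC array, so they entered the test through their signal in mTEC, and the counts and median above carry that choice. Among the 12 genes above background on all 8 arrays, 3 were higher in mTEC and 4 lower, with a median of 0.041. For 18 of the 20 genes not above background on either SIEC array, a lower bound of the fold could be given. It was computed in the main processing, against the dim end of the detectable range on each SIEC array, and the bounds ran from 1.85 to 573. The 5 that were higher in SIEC were Snap25, Aqp4, Mog, Stx1a and Crx. After normexp background correction in place of the scanner's own, 20 were higher and 9 lower, and over all genes the share of calls that were higher in mTEC went from 41.1% to 29.3% (31.2% without a filter on dim probes, 21.4% with the strict filter). Cdx1-/- mTEC replicate 1 shared its slide with both SIEC arrays, and on that slide alone all 29 had the same sign as in the fit. Those arrays are part of the fit, and 20 of the 29 entered it through their signal in mTEC. Equal signs were thus close to fixed beforehand, and the count is no check on slide.

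Of the glutamate receptor subunits, only Grin1 was above background on all 6 mTEC arrays, and that with the brighter of its probes alone. The others were near or below background. Grin1, the obligatory subunit of NMDA receptors, read −1.79, −1.54 and −1.70 in Cdx1+/+ mTEC and −2.32, −2.33 and −2.36 in Cdx1-/- mTEC. The 3 Cdx1-/- values all lay below the 3 Cdx1+/+ values and close together. Grin1 fell by 0.66 (SE 0.094, 1.58-fold, limma adjusted p = 0.0101), and it passed under all 15 alternative settings. The SIEC arrays read −5.35 and −4.14, not well above background, so mTEC were at least 3.12-fold higher. The array holds a second Grin1 probe, and their first 30 of 60 bases are shown because only the first of the pair was above background on any array (chromosome 2, mm9, at 25146927-25146986 and 25147922-25147981).
Grin1 probe used: aagagggctgagccttctcttctgtctgca
Grin1 probe below background: tttgcaaaaccaaaaagacacagtgctgcc
Grin2b, a glutamate-binding NMDA subunit, read −4.82, −4.25 and −5.05 in Cdx1+/+ mTEC and −5.66, −5.45 and −4.64 in Cdx1-/- mTEC. It was above background on 2 Cdx1+/+ arrays and on no Cdx1-/- array, and the groups overlapped (difference −0.54, 95% interval −1.29 to 0.20, adjusted p = 0.285). On SIEC arrays Grin2b read −4.35 and −5.46, below background. Grin2a and the AMPA receptor gene Gria2 were above background on none of the 8 arrays with either of their probes, at levels from −7.68 to −4.45. Gria1, another AMPA receptor subunit, was above background on 1 Cdx1-/- mTEC array (replicate 1, −3.47) and on the SIEC array labelled Cdx1+/+ (−1.94), and the other 6 arrays lay between −6.84 and −4.89. It was not tested between genotypes and did not pass between tissues (adjusted p = 0.132).

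Of the vesicle release and axon growth genes, Gap43 alone passed between genotypes. Gap43, a protein of the growth cone, read −0.82, −0.86 and −0.63 in Cdx1+/+ mTEC, −1.13, −1.13 and −1.27 in Cdx1-/- mTEC and −6.09 and −5.68 in SIEC. The genotypes did not overlap, and SIEC were below background. Gap43 fell by 0.41 (SE 0.099, limma adjusted p = 0.0439) and passed under only 2 of 15 alternatives, quantile normalization and the strict filter. Under a replicate block its adjusted p was 0.0704, and within slide 1 it was 0.0805. In mTEC it was at least 6.41-fold higher than in SIEC. Snap25 is the SNARE protein of the plasma membrane that is cut by botulinum toxin. It read 2.29, 3.01 and 2.80 in Cdx1+/+ mTEC, 1.29, 1.98 and 2.02 in Cdx1-/- mTEC and 4.48 and 5.40 in SIEC. The Cdx1-/- values were the lowest, replicate 1 lowest of all, and SIEC were the highest. The genotype difference of −0.94 (SE 0.26) did not pass (adjusted p = 0.0612), and passed once replicate number was a block (adjusted p = 0.0176). Against SIEC the level was lower in mTEC, at a difference of −2.71 (SE 0.43, adjusted p = 0.000523). The Snap25 probe (chromosome 2, 136607709-136607768, mm9) opens with a dinucleotide repeat, in capitals here: 10 copies of CA or more in a row, on either strand, are found in 71 of 55681 probes (0.128%) and in no other of the 55 probes described here.
Snap25 probe, first 30 bases: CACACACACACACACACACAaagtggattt
Whether that repeat adds signal from other transcripts was not tested.

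No other vesicle gene passed between genotypes. Syt1, the calcium sensor of fast release, read 5.04, 4.85 and 5.01 in Cdx1+/+ mTEC and 4.76, 4.97 and 4.87 in Cdx1-/- mTEC. These overlapped (difference −0.10, 95% interval −0.34 to 0.14). Its SIEC signals were −5.74 and −4.98, below background, and mTEC were at least 379-fold higher. Sncg, gamma-synuclein, read 5.34, 5.70 and 5.41 in Cdx1+/+ mTEC, 5.45, 5.54 and 5.64 in Cdx1-/- mTEC and −5.95 and −5.54 in SIEC. The genotypes overlapped (difference 0.062, 95% interval −0.23 to 0.35) and the bound against SIEC, at least 573-fold, was the highest among the 18. Syn1, which tethers vesicles to the cytoskeleton, read 0.45, 0.89 and 0.63 in Cdx1+/+ mTEC, 0.51, 0.58 and 0.59 in Cdx1-/- mTEC and −4.67 and −3.91 in SIEC, the last below background. Its genotypes overlapped too, and mTEC were at least 19.1-fold higher than SIEC. Syp, a membrane protein of synaptic vesicles, read 0.90, 1.12 and 1.09 in Cdx1+/+ mTEC, 0.26, 0.76 and 0.82 in Cdx1-/- mTEC and 0.75 and 1.13 in SIEC. The Cdx1-/- mTEC arrays were all lower than the Cdx1+/+ ones, but the difference of −0.42 did not pass (adjusted p = 0.142), and SIEC overlapped mTEC. Stx1a, the SNARE partner of Snap25, read −1.58, −1.69 and −1.72 in Cdx1+/+ mTEC and −1.53, −1.69 and −1.74 in Cdx1-/- mTEC. SIEC, at −1.52 and −1.01, lay just above, and mTEC were lower by a log2 difference of −0.39 (adjusted p = 0.0302), which did not pass with slide or replicate number as a block, nor without Cdx1+/+ mTEC replicate 3, Cdx1-/- mTEC replicate 2 or 3, or the SIEC sample labelled Cdx1-/-.

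Neurofilament genes, which build the axonal skeleton, were signals of mTEC and did not pass between genotypes. The light chain gene Nefl read 2.11, 1.55 and 2.09 in Cdx1+/+ mTEC and 1.68, 1.16 and 1.41 in Cdx1-/- mTEC. These overlapped, at a difference of −0.50 (adjusted p = 0.145), and each Cdx1-/- array was below the Cdx1+/+ array of its own number. Once replicate number was a block Nefl passed (adjusted p = 0.0400). The medium chain gene Nefm read −0.95, −1.47 and −0.73 in Cdx1+/+ mTEC and −0.82, −0.93 and −0.84 in Cdx1-/- mTEC. The heavy chain gene Nefh read 3.14, 2.98 and 3.28 in Cdx1+/+ mTEC and 3.19, 3.22 and 3.22 in Cdx1-/- mTEC. Both overlapped between genotypes. SIEC read −4.09 and −4.83 for Nefl and −4.19 and −4.49 for Nefm, below background, so mTEC were at least 39.9-fold and 6.48-fold higher. Nefh was above background on both SIEC arrays, at −3.08 and −2.26, and was higher in mTEC by 5.84 (SE 0.18, 57.3-fold, adjusted p = 5.08e-08). The second, dimmer Nefh probe was not above background in SIEC.

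Among enzymes of transmitter synthesis, Th fell. Th, tyrosine hydroxylase, the rate-limiting step to dopamine and noradrenaline, read 3.01, 3.08 and 3.31 in Cdx1+/+ mTEC, 2.29, 2.62 and 2.38 in Cdx1-/- mTEC and −1.31 and −1.17 in SIEC. Each group stood apart from the others. The genotype difference was −0.70 (SE 0.13, 1.63-fold, limma adjusted p = 0.0193). Within slide 1, where Cdx1-/- replicate 1 is left out, it was −0.63 and did not pass (adjusted p = 0.0518), nor did it without Cdx1+/+ replicate 2 or 3 or Cdx1-/- replicate 3. Compared with SIEC, mTEC were 16.2-fold higher (log2 4.02, SE 0.20, adjusted p = 7.95e-07). Gad1, which makes GABA, read 0.50, 0.54 and 0.63 in Cdx1+/+ mTEC and 0.44, 0.27 and 0.32 in Cdx1-/- mTEC. All Cdx1-/- arrays were lower, by a mean of 0.21 that did not pass (adjusted p = 0.156), and SIEC, at −5.93 and −4.88, were below background and at least 17.2-fold lower. Gad2, the other GABA-making enzyme, was near background, at −4.84, −4.40 and −4.60 in Cdx1+/+ mTEC (3 arrays above background), −5.58, −4.46 and −5.30 in Cdx1-/- mTEC (1 above background) and −4.70 and −5.41 in SIEC (none). Tph2, the neuronal enzyme of serotonin synthesis, read −4.78, −4.33 and −3.86 in Cdx1+/+ mTEC, −4.45, −4.30 and −4.22 in Cdx1-/- mTEC and −6.04 and −5.65 in SIEC, with SIEC below background. Neither Gad2 nor Tph2 passed between genotypes, and Tph2 was higher in mTEC (1.52, adjusted p = 0.000438), with no fold because the bound was under 1; after normexp correction its sign turned.

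Slc6a7 had the largest difference of the 35 genes tested. It encodes a proline transporter of the brain, and its probe lies on chromosome 18 (61155375 to 61155434, mm9), 23183 bases from the Cdx1 probe. It read 2.02, 2.06 and 2.04 in Cdx1+/+ mTEC and −0.67, −0.64 and −0.97 in Cdx1-/- mTEC. The SIEC samples read −1.03 (labelled Cdx1+/+) and −0.049 (labelled Cdx1-/-). Cdx1+/+ mTEC alone were high, and the Cdx1-/- mTEC arrays lay inside the SIEC range. The difference between mTEC genotypes was −2.80 (SE 0.11, 6.96-fold, limma adjusted p = 0.000871), with a range of −2.96 to −2.60 over 15 alternatives, all of which passed. In SIEC the sample labelled Cdx1-/- was higher by 0.98, with 1 array per label. The change in mTEC minus that in SIEC was −3.78 (95% interval −4.31 to −3.25, interaction term in limma, adjusted p = 0.00129). Of the 12 genes in the list that were above background in both tissues, Slc6a7 was the only one whose interaction passed, where 14.4% of all 25272 genes tested did, and 9.96% of the 16707 above background in both. With 1 SIEC array per label, the error of that term comes from the mTEC arrays alone and leaves out the spread between SIEC pools. The Cdx1 signal of the SIEC samples goes against their labels; with both labels exchanged, an alternative chosen after seeing the data, the term stayed below 0, at −1.82 (adjusted p = 0.00624), and 3 of the 12 passed, Slc6a7, Nefh and Aqp4 (5.55% of genes above background in both tissues). Between tissues, the difference of mTEC minus SIEC over all 8 arrays was 1.18 and did not pass (adjusted p = 0.152). With Cdx1+/+ mTEC alone against both SIEC arrays it passed. The tissue difference was −0.71 without the SIEC sample labelled Cdx1+/+ and 3.07 without the one labelled Cdx1-/-.

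The region around Slc6a7 held other genes that changed. Within 1 Mb of the Cdx1 probe 45 genes were tested and 12 passed, 11 lower and 1 higher in Cdx1-/- mTEC, or 10 of 43 without Cdx1 and Slc6a7, where 12.9% of all genes passed. Camk2a, a kinase of the postsynapse, is the nearest tested neighbour of Slc6a7, 30819 bases from the Cdx1 probe, and had a difference of −0.04 (adjusted p = 0.845). On the other side Pdgfrb, the platelet-derived growth factor receptor of mural cells, fell by 0.79 (adjusted p = 0.00942). The smallest p-values besides Cdx1 and Slc6a7 belonged to Gm4951 (difference −1.54), Sh3tc2 (0.97, a gene of Schwann cell myelination), Gm4841 (−4.23) and F830016B08Rik. The last was above background on no Cdx1-/- array and was at least 6.63-fold lower there (adjusted p = 0.00399). The phosphodiesterase gene Pde6a of rods, 270749 bases away, did not pass (−0.52, adjusted p = 0.194). Loss of Cdx1 and other differences linked to its locus cannot be told apart in this design.

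**Figure D2:**
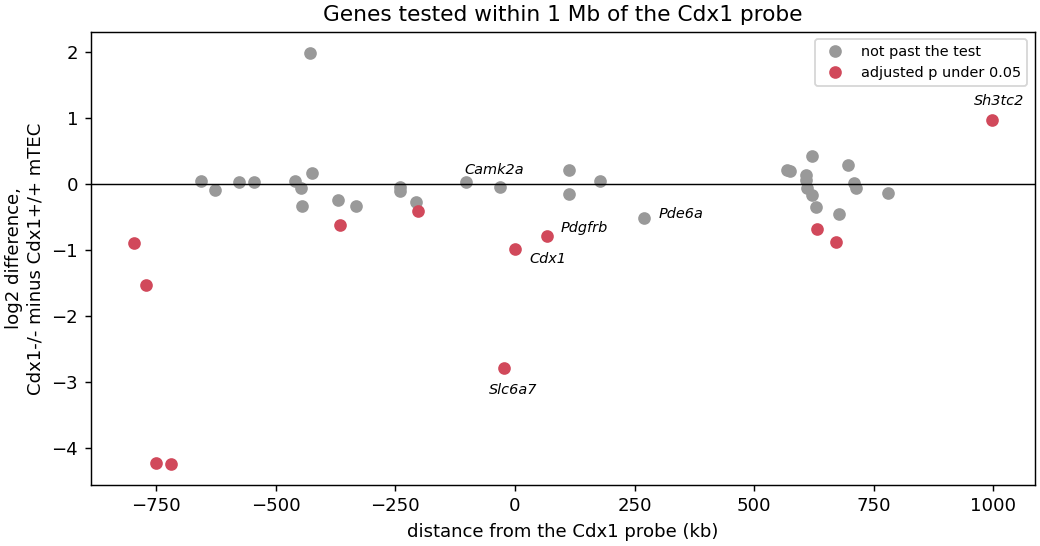
Log2 difference between Cdx1-/- and Cdx1+/+ mTEC against distance in kb from the Cdx1 probe, for 45 genes tested within 1 Mb, 1 point per gene; coloured points passed the test. Slc6a7 at −2.80 sits between Camk2a at −0.04 and Cdx1 at −0.99, and 2 genes near the left end lie lower, at −4.23 and at a fitted −4.25 whose Cdx1-/- signal was below background.

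The vesicular transporters, which load transmitter into vesicles, did not pass between genotypes. Slc17a6, a glutamate loader, read −1.68, −2.09 and −1.42 in Cdx1+/+ mTEC, −2.16, −1.69 and −2.13 in Cdx1-/- mTEC and −5.58 and −5.81 in SIEC. Genotypes overlapped (difference −0.26, 95% interval −0.75 to 0.22), and SIEC were below background and at least 3.46-fold lower than mTEC. Slc32a1, the loader of GABA and glycine, read 0.32, 0.038 and 0.63 in Cdx1+/+ mTEC, 0.70, 0.41 and 0.68 in Cdx1-/- mTEC and −4.54 and −3.59 in SIEC. It overlapped between genotypes in the same way (0.27, adjusted p = 0.314), and mTEC were at least 17.3-fold higher than SIEC, though its second probe was above background on no array. Slc17a7, another glutamate loader, was above background on none of the 8 arrays (−7.02 to −4.41).

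Of 5 myelin genes, 4 had a difference below 0 between genotypes and 1 passed. Mag, the myelin-associated glycoprotein of the inner wrap, read 0.62, 0.84 and 0.93 in Cdx1+/+ mTEC and 0.39, 0.42 and 0.29 in Cdx1-/- mTEC. The genotypes did not overlap. Mag fell by 0.43 (SE 0.11, limma adjusted p = 0.0457) and passed under 5 of 15 alternatives. Under a replicate block its adjusted p was 0.0646, and within slide 1 0.0899. On SIEC arrays it read −3.56 and −3.55, above background on 1 of them, and mTEC were higher by 4.13 (SE 0.14, adjusted p = 9.42e-08). Cnp, an enzyme of myelinating cells, read 3.98, 4.31 and 4.04 in Cdx1+/+ mTEC, 3.61, 3.78 and 3.67 in Cdx1-/- mTEC and 2.09 and 1.81 in SIEC. Each group was apart from the others, the genotype difference of −0.42 did not pass (adjusted p = 0.0594; 0.0405 under a replicate block), and mTEC were 3.87-fold higher than SIEC (adjusted p = 2.86e-06). Mobp, a small protein of compact myelin, read −2.62, −2.69 and −2.49 in Cdx1+/+ mTEC, −2.94, −2.87 and −2.96 in Cdx1-/- mTEC and −6.08 and −5.73 in SIEC, with SIEC below background. The genotypes did not overlap, with a difference of −0.32 that did not pass (adjusted p = 0.0612), and mTEC were at least 1.85-fold higher than SIEC. With normexp background that tissue difference did not pass (limma adjusted p = 0.105). A dimmer Mobp probe gave −3.71 in mTEC and −3.69 in SIEC, so the probes disagree between tissues.

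Mbp and Mog, major myelin autoantigens, passed in no comparison of genotypes. Mbp, the basic protein that compacts myelin, read 3.66, 3.59 and 3.39 in Cdx1+/+ mTEC, 3.54, 3.44 and 3.25 in Cdx1-/- mTEC and 3.45 and 3.25 in SIEC. The groups overlapped, between genotypes (−0.14, adjusted p = 0.471) and between tissues (0.13, adjusted p = 0.338). A second probe was higher in mTEC than in SIEC by 0.49, and the remaining one, at a mean of −2.14 in mTEC, was above background on no SIEC array. Mog, on the outer face of the sheath, read −3.50, −3.42 and −3.65 in Cdx1+/+ mTEC, −3.74, −2.89 and −3.39 in Cdx1-/- mTEC and −1.82 and −1.59 in SIEC. Genotypes overlapped, and mTEC were lower than SIEC, at a difference of −1.73 (SE 0.21, adjusted p = 0.000114).

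Genes of astrocytes and other glia went both ways. Aqp4 is the water channel of astrocyte endfeet and the autoantigen of neuromyelitis optica. It read −1.11, −0.94 and −1.02 in Cdx1+/+ mTEC, −0.34, −0.17 and −0.0096 in Cdx1-/- mTEC and 0.94 and 1.09 in SIEC. The 3 groups did not overlap, and Cdx1-/- mTEC lay between Cdx1+/+ mTEC and SIEC. Aqp4 rose by 0.85 in Cdx1-/- mTEC (SE 0.11, 1.80-fold, limma adjusted p = 0.00796), by 1.38 with its second probe, and passed under all 15 alternatives. Its probe (15551364-15551423, mm9) is on chromosome 18, as are those of Cdx1 and Slc6a7, but outside the 1 Mb window around Cdx1. Mbp, which did not pass, is on that chromosome too. Linkage of Aqp4 to the Cdx1 locus was not tested. Against SIEC the level was lower in mTEC by a log2 difference of −1.61 (adjusted p = 6.14e-05). S100b, a calcium-binding protein of glia, read 0.22, 0.20 and 0.24 in Cdx1+/+ mTEC and 0.58, 0.45 and 0.48 in Cdx1-/- mTEC. All Cdx1-/- values were higher, but the difference of 0.28 did not pass (adjusted p = 0.0659), and SIEC, at −5.75 and −5.33, were below background and at least 16.1-fold lower. Gfap, the intermediate filament of astrocytes, read −2.38, −1.63 and −2.42 in Cdx1+/+ mTEC, −3.39, −2.84 and −2.88 in Cdx1-/- mTEC and −5.18 and −5.60 in SIEC, with SIEC below background. The genotypes did not overlap, at a difference of −0.89 with the wide 95% interval of −1.50 to −0.29 (adjusted p = 0.0650; 0.0384 under a replicate block). A dimmer Gfap probe had a difference of −0.996 and a further one was above background on no array. Against SIEC mTEC were at least 2.09-fold higher, but with normexp background that difference did not pass (limma adjusted p = 0.0858).

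**Figure D3:**
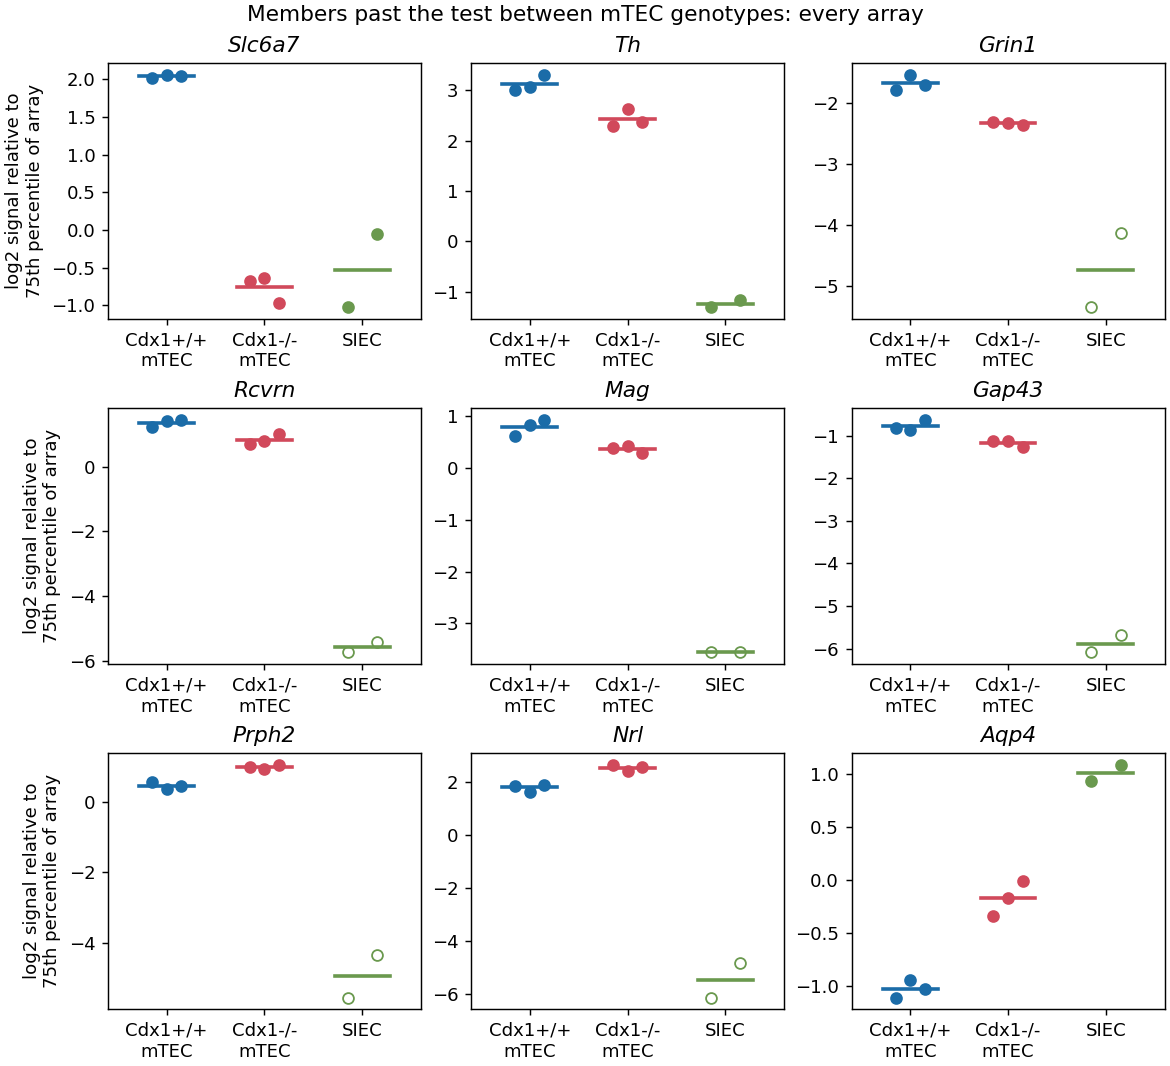
Log2 signal relative to the array's 75th percentile of the 9 genes that passed between mTEC genotypes, 1 point per array with bars at group means, for 3 Cdx1+/+ mTEC, 3 Cdx1-/- mTEC and 2 SIEC arrays; open points mark groups not above background on all their arrays. The genotypes do not overlap in any panel, and only for Aqp4 are SIEC the highest group.

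Photoreceptor genes held both directions. Nrl, the transcription factor that sets rod fate, read 1.85, 1.60 and 1.89 in Cdx1+/+ mTEC, 2.63, 2.40 and 2.55 in Cdx1-/- mTEC and −6.13 and −4.84 in SIEC. Cdx1-/- mTEC were highest, without overlap, and SIEC were below background. Nrl rose by 0.75 (SE 0.12, 1.68-fold, limma adjusted p = 0.0120) and passed under all 15 alternatives. Its second probe gave 0.69, but the probes (chromosome 14, 56138365-56138424 and 56138357-56138416, mm9) share 52 of 60 bases and so are no independent measure. The start of that shared stretch is in capitals in the first 30 bases of each:
Nrl probe used: cctcacagGATAACAGGGAGCCGAGAGACT
Nrl second probe: GATAACAGGGAGCCGAGAGACTgtgacttt
Prph2 encodes peripherin 2, which shapes the rim of the outer segment discs. It read 0.55, 0.35 and 0.43 in Cdx1+/+ mTEC and 0.97, 0.92 and 1.04 in Cdx1-/- mTEC, with the latter higher and tightly grouped. Prph2 rose by 0.53 (SE 0.09, limma adjusted p = 0.0156), by 0.57 with a separate second probe, and did not pass without Cdx1+/+ replicate 3 or without Cdx1-/- replicate 3. Against SIEC (−5.53 and −4.34, below background) mTEC were at least 20.6-fold higher, and for Nrl at least 56.0-fold.

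Rcvrn, recoverin, the calcium sensor of rods and cones, moved the other way. It read 1.23, 1.40 and 1.44 in Cdx1+/+ mTEC, 0.70, 0.79 and 1.00 in Cdx1-/- mTEC and −5.74 and −5.41 in SIEC. The genotypes did not overlap and SIEC were below background. Rcvrn fell by 0.53 (SE 0.11, limma adjusted p = 0.0301), within slide 1 by 0.46 (adjusted p = 0.0727), and did not pass either when any array other than Cdx1-/- replicate 3 was left out. In mTEC it was at least 26.8-fold higher than in SIEC. Gnat2, transducin of cones, read 0.21, 0.13 and 0.49 in Cdx1+/+ mTEC, −0.099, −0.14 and −0.047 in Cdx1-/- mTEC and −0.10 and −0.11 in SIEC. Cdx1-/- mTEC and SIEC overlapped below Cdx1+/+ mTEC, with a genotype difference of −0.37 that did not pass (adjusted p = 0.0799). Gnat1, transducin of rods, read −2.23, −2.23 and −2.16 in Cdx1+/+ mTEC, −2.26, −2.23 and −2.25 in Cdx1-/- mTEC and −6.09 and −4.43 in SIEC, with SIEC below background. Its genotype difference was −0.044 (95% interval −0.23 to 0.14), and mTEC were at least 2.68-fold higher than SIEC.

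The uveitis autoantigens Sag and Rbp3 did not pass between genotypes. Sag, the arrestin of photoreceptors, which ends the light response, read −1.68, −1.50 and −1.75 in Cdx1+/+ mTEC and −1.88, −1.88 and −1.85 in Cdx1-/- mTEC. Cdx1-/- values were all lower, by a mean of 0.23 (adjusted p = 0.154), and SIEC, at −5.996 and −5.33, were below background and at least 3.71-fold lower. Rbp3, which carries retinoids between photoreceptors and pigment epithelium, read 0.17, 0.98 and 0.87 in Cdx1+/+ mTEC, −0.42, 0.84 and 0.79 in Cdx1-/- mTEC and 0.63 and 0.55 in SIEC. Replicate 1 was low in both mTEC genotypes, the groups overlapped (difference −0.27, 95% interval −1.19 to 0.64), and SIEC lay inside the mTEC range. Pde6b, the rod phosphodiesterase, read −4.31, −3.87 and −4.23 in Cdx1+/+ mTEC, −4.80, −4.28 and −4.65 in Cdx1-/- mTEC (1 array above background) and −5.55 and −5.58 in SIEC (none). It did not pass between genotypes (adjusted p = 0.142; 0.0327 under a replicate block), and its higher level in mTEC (1.21) turned sign after normexp correction. Crx, the homeobox factor of photoreceptor genes, was above background on no mTEC array (−7.56 to −5.51) and on 1 SIEC array (−2.23, labelled Cdx1+/+; the other read −5.58). Its lower level in mTEC (−2.80, adjusted p = 0.0110) rests on that array and did not pass without it, and as a bound SIEC were at least 1.97-fold higher.

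**Figure D4:**
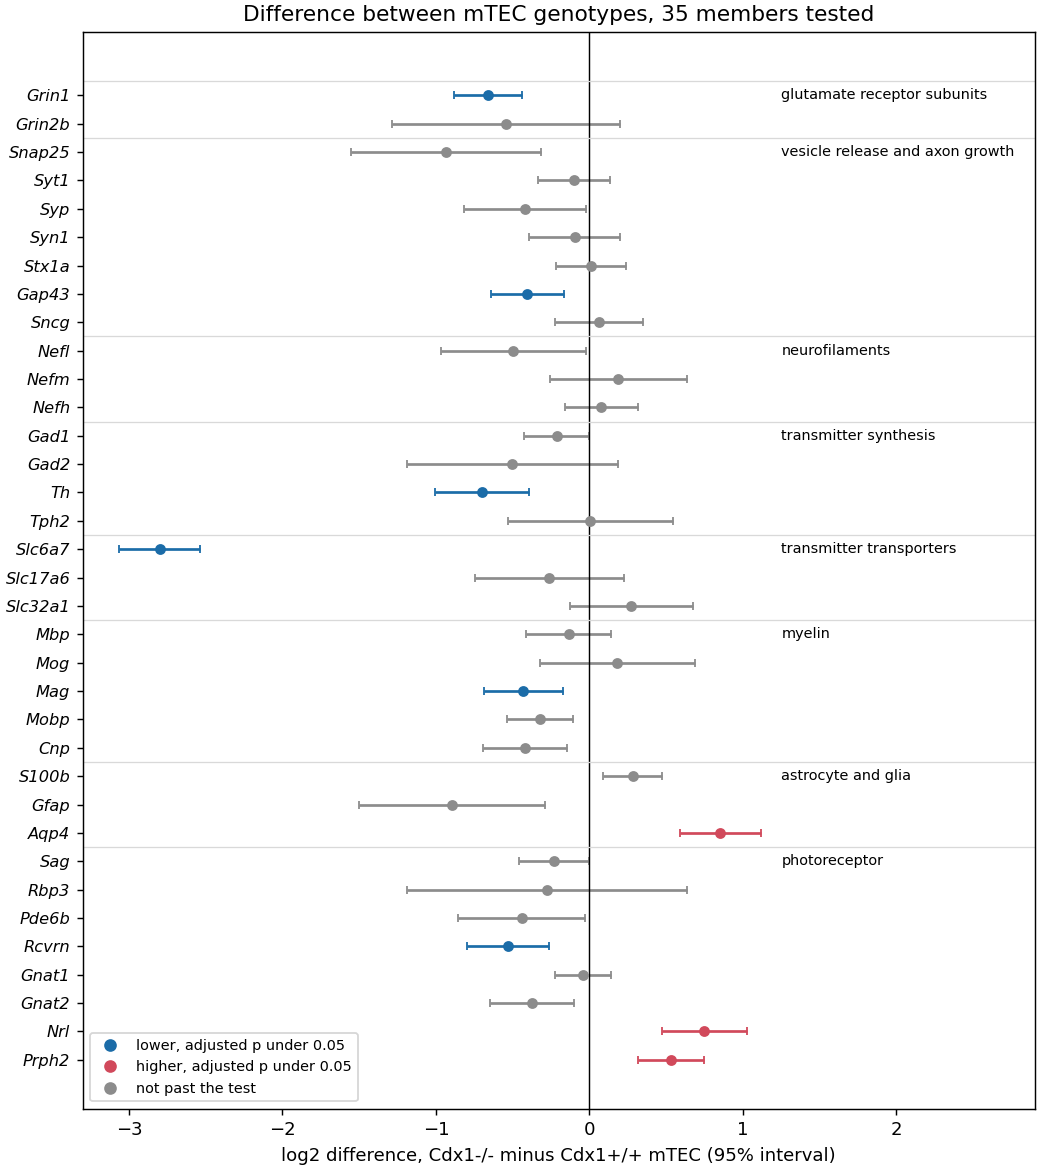
Log2 difference between Cdx1-/- and Cdx1+/+ mTEC with its 95% interval for the 35 genes tested, ordered by role; blue genes were lower and red genes higher at an adjusted p under 0.05. Apart from Slc6a7 at −2.80, every difference lies between −0.94 and 0.85, and the widest interval is that of Rbp3.

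Promoters from RefSeq (build GRCm38.p6) were on hand for 27 of the 40 genes, in 31 promoters, read as the 250 bases before the start. The motif TAATCC of CRX, on either strand, was in 6 of the 31 (19.4%), against 6.25% of all 32851 promoters, and those were of Crx, Gad1, Gnat2, Rbp3, Sag and Syp. Of 7 photoreceptor genes with a promoter 4 held it, and Sag, Rbp3 and Gnat2 gave signals in mTEC while Crx did not. Their promoters are shown, with the motif in capitals (Sag, chromosome 1, 87803430-87803679, plus strand; Rbp3, chromosome 14, 33953753-33954002, plus strand; Gnat2, chromosome 3, 108092816-108093065, plus strand).
Sag promoter: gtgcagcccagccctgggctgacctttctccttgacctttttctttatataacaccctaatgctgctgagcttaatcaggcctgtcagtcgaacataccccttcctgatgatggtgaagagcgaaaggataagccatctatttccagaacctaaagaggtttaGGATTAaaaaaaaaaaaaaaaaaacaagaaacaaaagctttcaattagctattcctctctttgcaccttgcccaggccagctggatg
Rbp3 promoter: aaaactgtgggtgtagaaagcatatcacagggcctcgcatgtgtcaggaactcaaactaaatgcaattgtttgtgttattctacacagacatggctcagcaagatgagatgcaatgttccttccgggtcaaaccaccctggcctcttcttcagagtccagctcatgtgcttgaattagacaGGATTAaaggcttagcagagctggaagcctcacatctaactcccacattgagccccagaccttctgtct
Gnat2 promoter: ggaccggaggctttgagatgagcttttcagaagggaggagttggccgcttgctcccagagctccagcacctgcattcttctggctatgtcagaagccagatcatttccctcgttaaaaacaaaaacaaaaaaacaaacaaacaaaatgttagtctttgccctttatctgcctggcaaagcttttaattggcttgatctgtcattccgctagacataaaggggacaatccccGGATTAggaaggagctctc
AATAAA, an AT-rich core that CDX proteins can bind, was in 1 of 31 (Slc17a6) against 18.1% of all promoters, and TATAAA in 3 of 31 against 12.4%. The motif parts of the neuronal repressor REST, CAGCACC and GGACAG, were in 2 and 9 of 31, against 5.73% and 18.7%. All were searched on both strands; AATAAA and TATAAA can overlap, but no promoter of these genes held both. A match is only those letters in that window. CpG counts in the window ran from 1 to 27 (median 5, against 6 over all promoters). Of genes that fell, Grin1 had 27, Th 13 and the promoters of Mag 2 or 3, and of genes that rose, Nrl had 2 and Prph2 4. Grin1 and Nrl, which passed under all alternatives, are shown with CG in capitals (Grin1, chromosome 2, 25319188-25319437, minus strand; Nrl, chromosome 14, 55524253-55524502, minus strand).
Grin1 promoter: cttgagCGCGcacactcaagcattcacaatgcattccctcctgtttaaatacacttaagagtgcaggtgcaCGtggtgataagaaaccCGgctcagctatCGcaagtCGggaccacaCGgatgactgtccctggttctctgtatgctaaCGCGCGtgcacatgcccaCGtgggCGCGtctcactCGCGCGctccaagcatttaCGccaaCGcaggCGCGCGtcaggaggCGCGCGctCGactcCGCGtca
Nrl promoter: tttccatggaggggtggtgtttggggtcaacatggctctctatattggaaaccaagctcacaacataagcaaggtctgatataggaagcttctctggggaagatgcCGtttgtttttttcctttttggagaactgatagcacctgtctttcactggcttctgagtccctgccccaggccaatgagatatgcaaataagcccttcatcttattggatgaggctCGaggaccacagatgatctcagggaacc

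Related genes of the same systems, in 3 further lists, also moved in both directions, and the median of each list lay below 0. Of 65 other synapse genes tested, 6 rose, 8 fell and the median was −0.18. The vesicular monoamine transporter gene Slc18a1 fell by 1.05 (limma adjusted p = 0.00376) and Sv2b, a synaptic vesicle protein, by 0.99. Tph1, the enzyme of serotonin synthesis outside the brain, rose by 0.61, and Slc17a8, a further glutamate loader, by 0.71. Of 31 other myelin and glia genes 4 rose and 6 fell (median −0.17). The oligodendrocyte factor gene Olig1 rose by 1.09 and Fabp7, the fatty acid binding protein of radial glia, by 1.07, while Enpp2 fell by 0.90 and Ermn, a protein of late myelin, by 1.30. Of 40 other photoreceptor and retina genes 2 rose and 3 fell (median −0.13). Cnga3, the channel of cones, rose by 0.62 and Gnb3, a G protein subunit of cones, by 0.96, while the lens crystallin gene Cryaa fell by 0.47 and Rlbp1, a retinal-binding protein, by 0.42. Together 12 rose and 17 fell of 136, where 12.9% of all genes passed. Blue opsin (Opn1sw) was above background on no mTEC array. Between tissues 96 of 137 were higher in mTEC and 25 lower, against 34.3% and 49.3% of all genes. On at least 1 SIEC array 32 of 67 synapse genes, 16 of 33 myelin and glia genes and 16 of 45 retina genes were detected, against 54.7% of all gene names. Many of the 137 thus entered the test through their signal in mTEC, and these counts carry that choice.

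**Figure D5:**
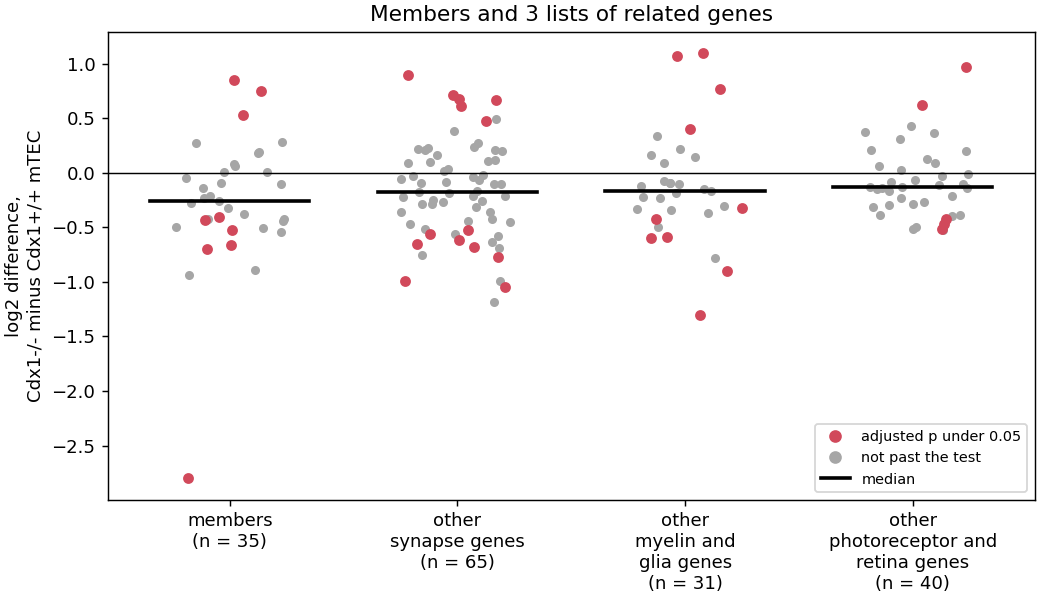
Log2 difference between Cdx1-/- and Cdx1+/+ mTEC, 1 point per gene, for the 35 genes described and 3 lists of related genes, with bars at the medians of −0.26, −0.18, −0.17 and −0.13. Coloured points passed the test and lie on both sides of 0 in each list.

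Marker lists of further cell types were read beside these results, as summed linear signals with the 75th percentile at 1. The 40 genes themselves summed to 154 to 167 in Cdx1+/+ mTEC, 139 to 149 in Cdx1-/- mTEC and 46.3 to 65.5 in SIEC. Of 12 neuron markers 11 were detected in mTEC and Hand2 was not, with sums of 10.7 to 12.8 in Cdx1+/+, 10.99 to 11.9 in Cdx1-/- and 0.43 to 0.52 in SIEC. Of 10 Schwann cell and enteric glia markers 9 were detected in mTEC and Cdh19 was not. Their sums were 13.6 to 13.9, 12.2 to 13.3 and 1.35 on both SIEC arrays, and of 9 tested 1 rose (Ncam1, by 0.57) and 2 fell (Ngfr, by 0.39, and Sox10, the factor of that lineage, by 0.59, limma adjusted p = 0.0411). The 15 neuroendocrine markers summed to 76.2 to 84.3 in Cdx1+/+, 75.1 to 78.6 in Cdx1-/- mTEC and 108 to 125 in SIEC, with Pax6 on no mTEC array. Tuft cell markers, 12 in all, were higher in Cdx1-/- mTEC (22.1 to 25.7) than in Cdx1+/+ (13.7 to 17.2), with 8 that rose, and Gnb3 is one of them. Enterocyte markers were lower (20.1 to 21.1 against 37.4 to 42.4), with 9 of 11 that fell. Sums of 12 thymocyte markers were 38.3 to 48.9 and 28.3 to 34.9 (Rag2 on no array), of 12 dendritic cell and macrophage markers 93.7 to 112 and 71.6 to 102 (Xcr1 on none), and of 11 mesenchyme and endothelium markers 22.4 to 26.8 and 21.0 to 26.0 (Emcn on none). Their part in the differences between genotypes was not tested.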

How the data were processed

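Each of the 8 scanner files gives a linear intensity for every spot, which the authors obtained with Agilent Feature Extraction 10.7.3.1 (per the file headers), background-subtracted within the array. The normalized signal table that the authors deposited was compared with it: every array's column is its processed intensity multiplied by a constant (all spots within 0.01 on the log2 scale), with a median of 1, and the choice of constant is not stated. Positions are on mm9, per the file headers.

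The log2 of the processed intensity, less the array's 75th percentile, was used here. Spots flagged as outliers were dropped (12 probes lost, 55669 kept), and spots of a probe were averaged. A probe was eligible when detected above background on 2 or more arrays of a group, or on its only array, and the brightest eligible probe stood for the gene. limma 3.58.1 (lmFit and eBayes, R 4.3.3, data.table, version 1.17.8) was fitted to 6 arrays for the mTEC genotypes, and to all 8 for tissues, with genotype label added, and for the interaction. Tests were 2-sided, p was adjusted by Benjamini-Hochberg over every gene of the fit, and 0.05 was the limit. The fits were tested on simulated data. Tables and plots used pandas 2.3.3 and matplotlib 3.10.9. The number of arrays limits the precision. A fold given as "at least" sets the bright group's mean against a floor on each dim array, which is either the lowest signal well above background or the probe itself, whichever is higher. It holds for the main processing only and is no minimum over the alternatives. Over those, fitted log2 tissue differences went as low as 0.29 for Mobp, 0.43 for Gfap, 0.45 for Gnat1, 0.51 for Grin1 and 1.49 for Gap43.

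The genes and lists were chosen with earlier results of these data known. All genes of the list are accounted for, and of each related list, and of the genes within 1 Mb of Cdx1, the 4 of smallest p are named; Pde6a, Pdgfrb and Camk2a are named besides, for their position, and Opn1sw, Ncam1, Ngfr and Sox10 were chosen after their values were seen. Replicate numbers come from the sample titles. For mTEC arrays of the same number, departures from the mean of each genotype correlated by 0.32, 0.15 and 0.15, against −0.22 to 0.056 for other pairs. By a limit of 0.1, replicate number was therefore tried as a block. No label states such a pairing. Departures cancel out within a genotype, so higher values for same-numbered pairs pull those of other pairs down. The contrast thus cannot show that the samples were paired, and results with that block assume it. Slide 1 held 5 arrays and slide 2 held Cdx1-/- mTEC replicate 1 and both SIEC arrays. Alternatives were quantile normalization, normexp background (offset 50), no filter or a strict filter on dim probes (above background on every array), the authors' table, every probe on its own, slide or replicate number as a block, slide 1 alone, and leaving out each array; for tissues also no genotype term and Cdx1+/+ mTEC alone. For the interaction, exchanged SIEC labels were tried after the data were seen.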

Additional observations from a re-analysis of the deposited data

Results flagged for a closer look

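Of the 12 genes above background in both tissues, Slc6a7, the proline transporter gene next to Cdx1, was the one whose change with genotype differed between tissues by the interaction term. The log2 change in mTEC minus that in SIEC was −3.78 (95% interval −4.31 to −3.25, limma adjusted p = 0.00129), from −2.80 in mTEC (3 arrays against 3) and 0.98 in SIEC (1 array per label), so its error leaves out the spread between SIEC pools. That is 1 gene of 12 (8.33%), where 9.96% of all genes above background in both tissues passed. The SIEC labels go against the Cdx1 signal, which was 4.87 in the sample labelled Cdx1+/+ and 6.48 in the sample labelled Cdx1-/-, and with the labels exchanged the term was −1.82.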

How the results depend on the processing

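Between mTEC genotypes, genes that passed numbered 3136, and 1971 with normexp background, 1322 without a filter on dim probes, 1778 with slide as a block or within slide 1, and 1054 to 1778 when 1 array was left out (lowest without Cdx1+/+ replicate 3). Genes of the list that passed numbered 9, and 5 without the filter (40 tested), 5 with slide as a block or within slide 1, and 4 to 7 with 1 array left out. With replicate number as a block, which assumes the pairing above, 3472 genes and 12 of the list passed. Gap43 and Mag were lost, and Snap25, Cnp, Gfap, Nefl and Pde6b were gained. Between tissues 21018 and 28 passed with that block, with Stx1a lost, and the block changed no other call. Between tissues the strict filter left 13947 of 21132 genes and 7 of 29 of the list (3 higher and 4 lower in mTEC), since only 12 of the list were above background on all 8 arrays. Scaling moved the median of all genes by 0.30 (quantile), −0.13 (normexp) and −0.48 (the authors' table). Signs turned with normexp for Pde6b (−0.41), Gad2 (−0.80) and Tph2 (−0.44), all near background. Mobp and Gfap kept their sign with normexp but did not pass. For Slc6a7 the sign turned without the SIEC sample labelled Cdx1+/+ (−0.71, and 3.07 without the one labelled Cdx1-/-). Tissue differences that did not pass in the main fit also crossed 0 between settings for further genes. These were Gria1 (−3.82 to 1.05), Mbp (−0.34 to 0.85), Gnat2 (−0.28 to 0.39), Syp (−0.65 to 0.28), Grin2b (−0.87 to 0.26) and Rbp3 (−1.05 to 0.15). Apart from these constructions, the causes were not tested.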
